A study of Mus musculus with 12 samples.

Results

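The genes described here are 44 genes of the G1/S transition and of DNA replication, chosen by name, and all 44 were found among the 24062 rows of the deposited expression tables. They were read in BV2 cells, an immortalised mouse microglial line, in 12 polyA RNA libraries with 3 in each of 4 groups. Every group consisted of cells sorted by flow cytometry after a transient delivery. The knockdown group carried an shRNA against Spi1, the gene of the myeloid transcription factor PU.1, and its control carried a scrambled sequence. The overexpression group carried the mouse Spi1 cDNA, and its control an empty frame. All groups shared the line, the serum-containing medium and the absence of any further treatment. The labels do not say which promoter drives each construct, how long after delivery the cells were taken, or whether a group drew on separate cultures. Each p-value below therefore reflects only how far these libraries spread, and that spread may be technical.

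At the G1/S transition cyclin E and its kinase help to release E2F factors from the retinoblastoma protein, and E2F factors then raise the transcription of replication genes. In G1 the origin recognition complex, Cdc6 and Cdt1 load the MCM2-7 helicase onto DNA, and in S phase Mcm10, Cdc45 and the GINS complex turn it into a moving helicase. Polymerases then copy both strands with the sliding clamp PCNA, its loader RFC and the single-strand binder RPA. PU.1 is best known for driving the transcription of myeloid genes, and BV2 cells divide in culture.

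Spi1 itself was read first, because it checks the labels. Scrambled control libraries 1, 2 and 3 read 159, 169 and 168 FPKM, and knockdown libraries 1, 2 and 3 read 50.9, 42.4 and 52.3 FPKM. FPKM is a read count scaled by library size and by gene length. The fall was 1.75 on the log2(FPKM + 1) scale (SE 0.089, limma adjusted p = 0.000697). In the other experiment the empty controls read 158, 117 and 131 FPKM and the overexpression libraries 287, 224 and 206 FPKM. Those groups did not overlap, but the difference of 0.81 (SE 0.16) had an adjusted p of 1, or 0.0357 in the fit with a replicate block. The Spi1 row cannot separate the introduced cDNA from the resident gene. Library depth ran from 22.33 to 33.06 megareads, and the 44 genes rested on 186 (Rpa3) to 14873 (Pcna) recovered reads a library. Sums of 8 microglia and macrophage markers ran from 1336 to 1700.3 FPKM, and markers of neurons, astrocytes, oligodendrocytes, endothelium, fibroblasts and lymphocytes each summed to at most 0.606 FPKM, with Rbfox3, Snap25, Aqp4 and Cd3e at 0 in all 12 libraries.

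**Figure D1:**
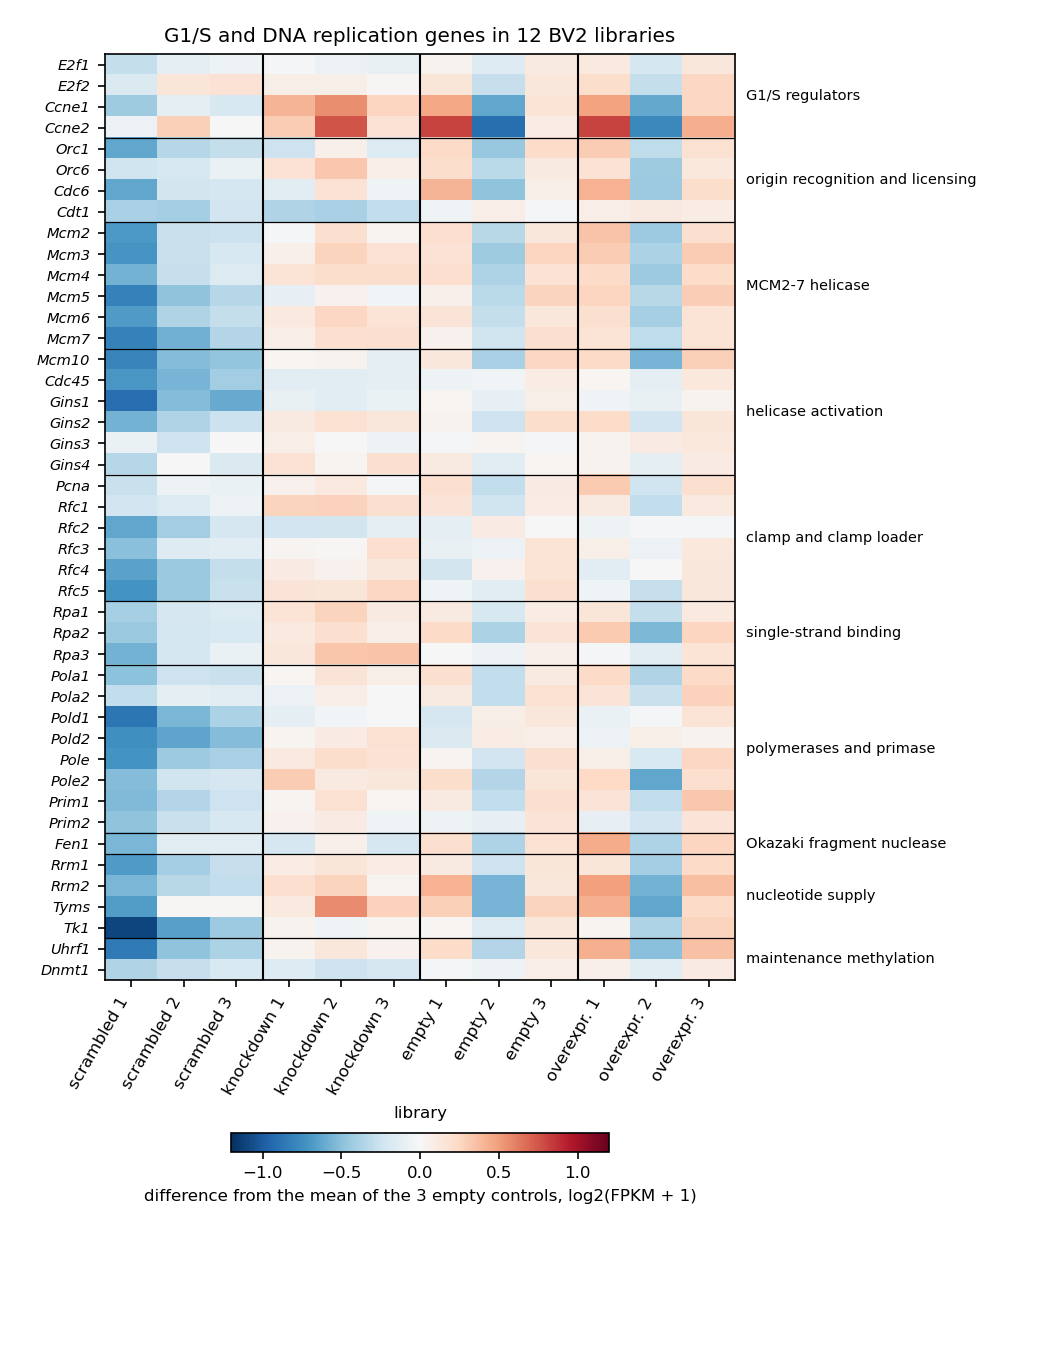
Heat map of the 44 genes (rows, by role) in the 12 libraries (columns), coloured by the difference in log2(FPKM + 1) from the mean of the 3 empty controls. The median over the 44 genes is -0.56, -0.27 and -0.21 in scrambled control libraries 1, 2 and 3. It is between 0.057 and 0.13 in the knockdown libraries. The 2 libraries numbered 2 of the overexpression experiment, at -0.26 and -0.29, are paler blue than scrambled control 1 and near scrambled controls 2 and 3.

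The knockdown comparison asked how the transcriptome of BV2 cells differs when PU.1 is reduced. Replication genes were higher in the knockdown libraries than in the scrambled controls: 29 of the 44 genes rose, none fell and 15 did not pass the test. Among all 11214 genes tested 17.4% were called higher, 8.86% lower and 26.3% in either direction. The median difference of the 44 genes was 0.47, against 0.072 for all genes tested. Tk1, Mcm7 and Pold2 showed the largest rises, 0.74, 0.74 and 0.74. In 36 of the 44 genes every knockdown library stood above every scrambled control, against 30.3% of all genes (15.1% the other way round). By number, knockdown exceeded its scrambled partner in 44 of 44 genes for library 1, 43 for library 2 and 38 for library 3, where all genes gave 63.2%, 61.3% and 60.7%. These are bulk libraries, in which a larger share of cells in S phase and more RNA per cell cannot be told apart.

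These counts depended on the libraries and on the scaling. Scrambled control library 1 was the lowest of all 12 libraries in 32 of the 44 genes, against 18.2% of all genes; without it 27 genes rose and the median was 0.37. The fit with a replicate block called 36 genes higher, against 30.6% of all genes (45.3% called in either direction, 14.7% lower). A fit of all 12 libraries with 1 shared spread called 14 of the 44 and 1605 of all genes, where the 6-library fit called 29 and 2945. Leaving out the libraries numbered 2, which left 2 against 2, called 2 of the 44, Pold2 and Ccne1, and 449 of all genes, at a median of 0.47. Scaling by the median of ratios moved the split over all genes from 1952 higher and 993 lower to 1251 and 1454, and kept 28 of the 44 called, all higher. Leaving out some single library removed the call of 8 of the 29 genes: Mcm2, Mcm3, Mcm5, Orc6, Rpa3, Pold1, Prim2 and Tk1.

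**Figure D2:**
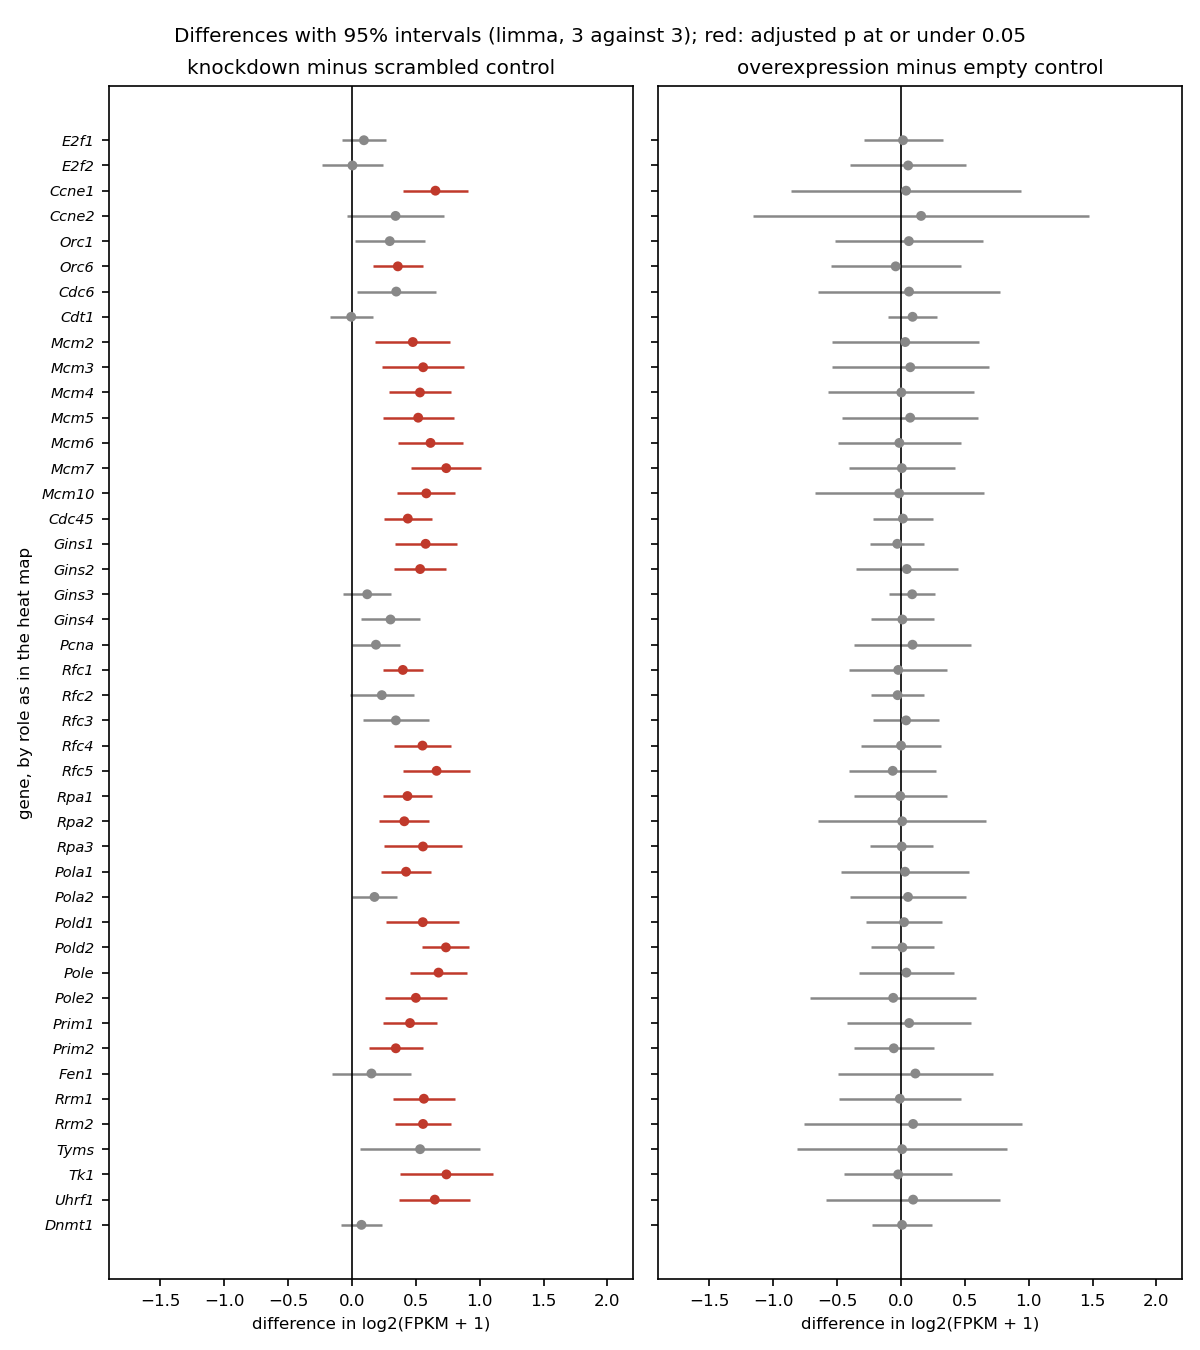
Difference in log2(FPKM + 1) of each gene (rows, by role) with its 95% interval, for knockdown minus scrambled control on the left and overexpression minus empty control on the right, red where the adjusted p was at or under 0.05. On the left 29 of 44 points are red and all of those lie above 0, whereas on the right no point is red and all 44 intervals hold 0.

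The helicase rose as a whole. All 6 genes of the MCM2-7 ring, the motor that unwinds DNA ahead of the polymerases, passed the test, with differences from 0.48 to 0.74. For Mcm6 the scrambled controls measured 59.4, 74.2 and 78.3 FPKM and knockdown 104, 113 and 107 FPKM, with no overlap (difference 0.62, SE 0.11, adjusted p = 0.00842). It was the most abundant of the 6 per length in 12 of 12 libraries. Mcm7 read 31.5, 37.3 and 43.9 FPKM against 59.4, 64.8 and 64.4 FPKM, a rise of 0.74 (SE 0.12, adjusted p = 0.00615). Mcm2 had the largest p of the ring, at 24.1, 32.7 and 32.7 FPKM and 39.1, 45.3 and 40.5 FPKM (difference 0.48, SE 0.13, adjusted p = 0.0311). In each of these genes scrambled control library 1 was the lowest. The Mcm2 call was lost without knockdown library 1, 2 or 3, at adjusted p values of at most 0.0934.

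Of the licensing genes, which prepare origins in G1, 1 of 4 passed. Orc6, an origin recognition subunit, rose from 24.8, 25.6 and 27.8 FPKM to 33.2, 36.98 and 31.1 FPKM (difference 0.36, SE 0.083, adjusted p = 0.0201), but not in the fits without scrambled control 1 or 2 or knockdown 1 or 2. Cdc6, the helicase loader, stood at 5.19, 7.20 and 7.27 FPKM and 7.72, 9.75 and 8.24 FPKM; the groups did not overlap, and the adjusted p was 0.0927, or 0.0194 with the block. Orc1 likewise passed with the block only, at 0.0246 against 0.1. Cdt1, the partner of Cdc6 that is destroyed once S phase begins, did not pass. Scrambled controls gave 81.1, 80.4 and 91.1 FPKM and knockdown 82.9, 81.5 and 86.9 FPKM, overlapping groups with a difference of -0.0054 (95% interval -0.17 to 0.16).

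Among the genes that activate the helicase 4 of 6 rose: Mcm10, Cdc45, Gins1 and Gins2. Gins2, a subunit of the GINS ring, had 29.1, 33.8 and 36.3 FPKM in control and 47.2, 49.5 and 47.8 FPKM in knockdown (difference 0.53, SE 0.087, adjusted p = 0.00681). Of its annotated exon bases 67.3% are shared with Gse1 on the opposite strand, which this library kit cannot separate. The length recovered from the FPKM values was 1038 bases, against 4097 annotated exon bases of which 2758 are shared, so the counted model may hold few or none of them. Mcm10, an origin firing factor, was at 11.4, 13.97 and 14.4 FPKM and 20.7, 21.1 and 18.9 FPKM, a rise of 0.58 (SE 0.10, adjusted p = 0.00725). Gins1 rose by 0.58 (SE 0.10, adjusted p = 0.00942), from 9.51, 12.8 and 11.99 FPKM to 17.6, 16.99 and 17.7 FPKM. All 3 genes thus kept their groups apart. Gins3, in contrast, overlapped, at 11.3, 9.96 and 11.9 FPKM and 12.7, 12.1 and 11.4 FPKM (difference 0.12, 95% interval -0.069 to 0.31).

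Of the 6 clamp and clamp loader genes 3 rose, all of them loader subunits. Rfc1, the large subunit that opens the clamp, went from 18.2, 19.1 and 20.6 FPKM to 26.1, 26.4 and 24.8 FPKM (difference 0.40, SE 0.068, adjusted p = 0.00774). Rfc5 was measured at 19.5, 23.7 and 26.99 FPKM and 36.5, 36.3 and 39.1 FPKM, a rise of 0.66 (SE 0.11, adjusted p = 0.00781). The clamp gene Pcna, the most abundant member of this set in 12 of 12 libraries, did not pass. Control values were 263, 305 and 300.3 FPKM and knockdown values 329.6, 345 and 314 FPKM, separate groups with a difference of 0.19 (SE 0.079, adjusted p = 0.118, 0.0633 with the block). Rfc2 overlapped, at 38.5, 44.4 and 51.8 FPKM and 50.9, 51.4 and 55.6 FPKM (difference 0.23, adjusted p = 0.148, 0.0442 with the block).

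All 3 subunits of RPA, which coats the exposed single strand, rose. Rpa1 levels were 45.6, 52.4 and 53.8 FPKM against 67.9, 72.8 and 65.2 FPKM (difference 0.43, SE 0.083, adjusted p = 0.0111). For Rpa2 the values were 29.8, 35.1 and 35.9 FPKM against 44.5, 46.7 and 43.4 FPKM (0.41, SE 0.084, adjusted p = 0.0138). The smallest subunit, Rpa3, gave 11.3, 14.7 and 16.3 FPKM against 18.99, 21.98 and 22.05 FPKM (0.56, SE 0.13, adjusted p = 0.0209), and lost its call without knockdown library 2 or 3. No control library reached a knockdown library in any of the 3, and per length Rpa1 was the highest and Rpa3 the lowest in 12 of 12 libraries.

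Of the 8 polymerase and primase genes 7 rose, Pola2 being the exception. Pold2, an accessory subunit of polymerase delta, had the smallest p of the 44. The 3 controls gave 27.7, 29.9 and 32.5 FPKM and knockdown 48.2, 50.2 and 53.6 FPKM, a 1.67-fold difference on the log2(FPKM + 1) scale (0.74, SE 0.079, adjusted p = 0.00249). Pole, the catalytic subunit of the leading-strand polymerase, rose from 6.58, 8.27 and 8.56 FPKM to 12.5, 13.5 and 13.1 FPKM (difference 0.68, SE 0.10, adjusted p = 0.00469). Both genes left a wide gap between the groups. Pola2, an accessory subunit of DNA polymerase alpha, was at 21.4, 24.4 and 24.2 FPKM and 25.1, 27.97 and 26.4 FPKM, separate but close groups (difference 0.18, adjusted p = 0.125, 0.0288 with the block).

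Nucleotide supply genes followed, with Rrm1, Rrm2 and Tk1 higher among 4. Rrm2, the regulated subunit of ribonucleotide reductase, read 33.4, 38.9 and 39.96 FPKM against 56.8, 59.4 and 50.2 FPKM in knockdown (difference 0.56, SE 0.095, adjusted p = 0.00781). Its partner Rrm1 rose by 0.56 (SE 0.10, adjusted p = 0.0101), from 28.4, 34.6 and 37.9 FPKM to 49.2, 51.2 and 49.1 FPKM. Tyms, which makes thymidylate, was the lowest of the 4 per length in 12 of 12 libraries, at 5.19, 8.90 and 8.90 FPKM and 9.64, 13.6 and 10.9 FPKM. Its groups were separate, but the 3 scrambled controls spread widely and the difference of 0.53 (SE 0.20) had an adjusted p of 0.0893, or 0.0152 with the block. Fen1, the nuclease that trims Okazaki fragments, overlapped, at 24.9, 33.8 and 33.7 FPKM and 32.01, 38.5 and 31.95 FPKM (difference 0.15, adjusted p = 0.421). Its row shares 84.2% of its exon bases with other annotated genes, so reads of those genes may be in it.

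Of the 4 G1/S regulators 1 rose. Ccne1, a cyclin E gene, rose from 15.4, 19.5 and 18.4 FPKM to 28.4, 31.7 and 25.5 FPKM (difference 0.65, SE 0.11, adjusted p = 0.00742). Ccne2, the other cyclin E gene, overlapped at 5.72, 7.63 and 6.05 FPKM and 7.75, 10.96 and 6.96 FPKM (0.34, adjusted p = 0.16, 0.0161 with the block). Knockdown library 2 was the highest of the 6 for both cyclins. The 2 activator E2F genes did not pass. E2f1 was measured at 21.9, 24.8 and 25.6 FPKM and 26.5, 25.5 and 25.2 FPKM (0.094, 95% interval -0.081 to 0.27). E2f2 was at 13.8, 17.6 and 17.9 FPKM and 16.6, 16.6 and 15.9 FPKM (0.0044, 95% interval -0.23 to 0.24). Scrambled control library 1 was the lowest of the 6 for both E2F genes, and the other 5 lay close together.

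Of the 2 maintenance methylation genes, which copy DNA methylation onto the new strand, 1 rose. Uhrf1, which reads hemimethylated DNA, rose from 22.3, 29.1 and 31.2 FPKM to 42.4, 45.2 and 42.5 FPKM (difference 0.65, SE 0.12, adjusted p = 0.00995). Dnmt1, the methyltransferase that Uhrf1 recruits, overlapped at 46.9, 49.9 and 53.2 FPKM and 54.4, 50.8 and 52.7 FPKM (0.075, 95% interval -0.087 to 0.24).

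**Figure D3:**
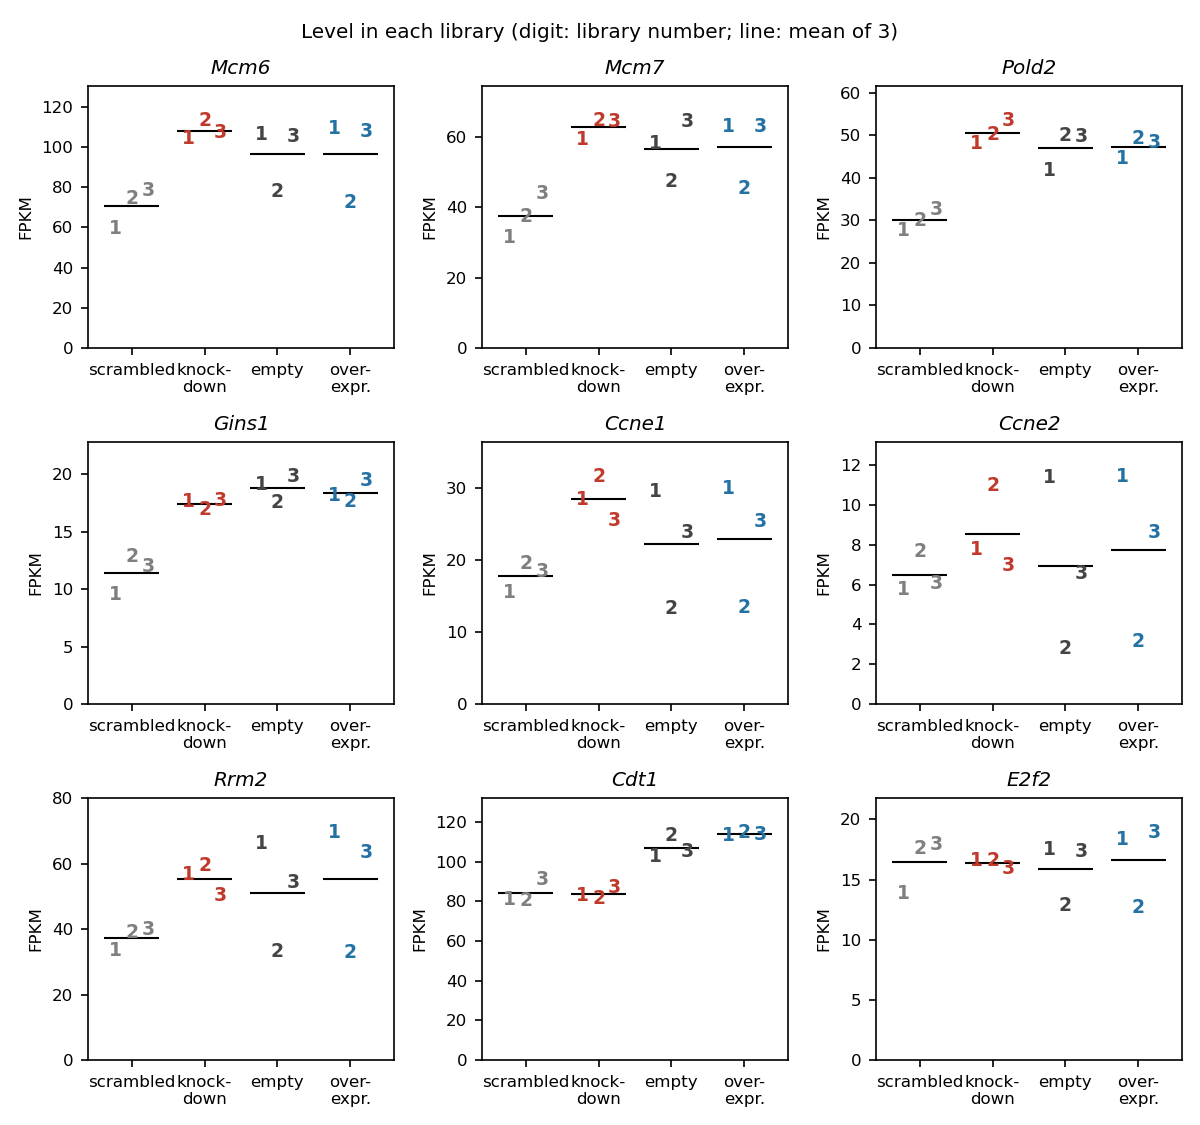
FPKM of 9 of the genes in each library (digits 1 to 3 mark the library number, lines the group mean, linear axes from 0). Mcm6, Mcm7, Pold2, Gins1, Ccne1 and Rrm2 show the scrambled controls below knockdown. The 2 libraries numbered 2 of the overexpression experiment drop in Ccne1, Ccne2, Rrm2 and Mcm6 but not in Pold2 or Cdt1. In Gins1 they lie slightly below the other libraries of that experiment.

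The promoters of these genes are known for E2F sites, so the RefSeq windows of 300 bases, 250 before and 50 after each annotated start in GRCm38.p6 (mm10), were searched on both strands. Of the 44 genes 36 matched, with 43 windows. The words TTTCCCGC, TTTGGCGC, TTTCGCGC and TTTGCCGC, counted together as an E2F match, stood in 15 of the 43 windows (34.9%), from 15 genes, against 2.26% of 32851 promoters. The word CCAAT stood in 65.1% of the 43 windows against 37.4% of all, TTTGAA or TTCGAA in 20.9% against 19.2%, and GAGGAAGT, a PU.1-like word, in 1 window, that of Rfc1, against 3.2%. A match describes letters only, and no match says only that these letters are not in this window. The 5 upstream stretches below contrast genes with and without the E2F words, and all lie outside the gene's own annotated body. Mcm5, Mcm6 and Pola1 are the 3 such stretches that hold an E2F word, and Rrm1 and Tyms are the 2 such stretches of the nucleotide supply genes, neither holding one. Mcm5 and Mcm6 are ring subunits, Pola1 is the catalytic subunit of DNA polymerase alpha, and Rrm1 and Tyms supply nucleotides. Each reads 5′ to 3′ on the gene's strand and ends at the base before the RefSeq start, with E2F words, merged where they overlap, in capitals.
Mcm5, chr8:75109259-75109508: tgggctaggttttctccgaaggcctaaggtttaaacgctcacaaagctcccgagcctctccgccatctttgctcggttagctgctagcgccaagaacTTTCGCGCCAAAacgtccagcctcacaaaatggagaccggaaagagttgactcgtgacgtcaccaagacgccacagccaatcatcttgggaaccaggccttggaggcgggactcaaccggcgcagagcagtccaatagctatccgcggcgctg
Mcm6, chr1:128359706-128359955: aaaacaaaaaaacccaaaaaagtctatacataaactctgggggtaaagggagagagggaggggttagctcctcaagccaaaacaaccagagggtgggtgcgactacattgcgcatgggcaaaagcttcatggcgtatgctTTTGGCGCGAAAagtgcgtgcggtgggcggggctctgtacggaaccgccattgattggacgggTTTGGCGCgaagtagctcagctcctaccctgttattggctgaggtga
Pola1, chrX:93632156-93632405: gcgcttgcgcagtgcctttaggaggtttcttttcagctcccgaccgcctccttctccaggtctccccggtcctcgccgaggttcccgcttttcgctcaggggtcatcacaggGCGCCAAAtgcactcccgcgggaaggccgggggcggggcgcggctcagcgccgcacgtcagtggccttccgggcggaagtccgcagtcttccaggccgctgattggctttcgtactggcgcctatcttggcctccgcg
Rrm1, chr7:102441445-102441694: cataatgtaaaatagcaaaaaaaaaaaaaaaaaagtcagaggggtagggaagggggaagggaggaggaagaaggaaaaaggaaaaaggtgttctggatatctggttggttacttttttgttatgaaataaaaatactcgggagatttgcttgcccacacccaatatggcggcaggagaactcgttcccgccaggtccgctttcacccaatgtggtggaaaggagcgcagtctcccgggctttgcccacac
Tyms, chr5:30073626-30073875: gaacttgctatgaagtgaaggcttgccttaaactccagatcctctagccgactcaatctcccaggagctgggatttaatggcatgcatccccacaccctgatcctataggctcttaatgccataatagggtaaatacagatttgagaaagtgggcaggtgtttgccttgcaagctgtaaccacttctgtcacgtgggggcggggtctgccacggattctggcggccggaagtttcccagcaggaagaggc

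Mcm5 lies on the plus strand of chromosome 8 and Rrm1 on the plus strand of chromosome 7, whereas Mcm6, Pola1 and Tyms are on the minus strands of chromosomes 1, X and 5. Mcm6 has 2 matches before its start, Mcm5 and Pola1 1 each, and the stretches of Rrm1 and Tyms none. In knockdown Mcm5 rose by 0.52 (adjusted p = 0.0199) and Pola1 by 0.42 (adjusted p = 0.0127), next to the rises of Mcm6 and of Rrm1, which has no such word there. Cdc6, Cdt1, Dnmt1, E2f2, Gins3, Orc1 and Rfc3 did not pass the test and do hold an E2F match in a window. Of these, Cdc6, Orc1 and Rfc3 passed with the replicate block. In the plot of match positions the E2F words lie on both sides of the start.

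**Figure D4:**
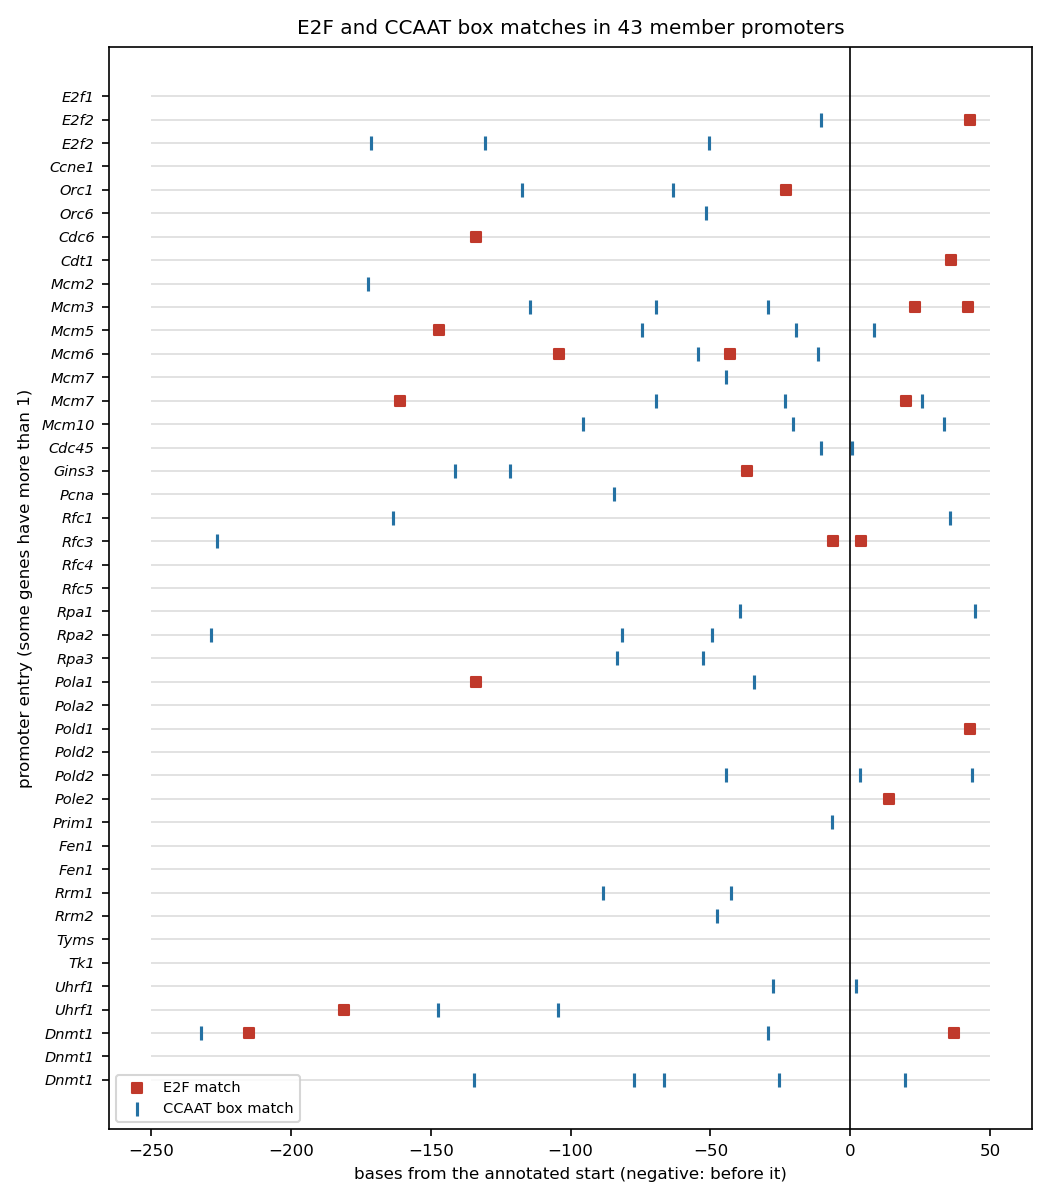
Positions of E2F matches (squares) and CCAAT words (bars) in the 43 promoter windows of 36 genes, in bases from the annotated start, 1 row per window. E2F matches appear in 15 rows, and CCAAT words in 28.

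The overexpression comparison asked the reverse question, with more PU.1. None of the 44 genes passed, and neither did any of the 11217 genes tested (0.0%). Unadjusted p values were under 0.05 for 122 genes, none of them among the 44, or for 1577 with the replicate block, which called 13 genes (0.116%, 0.0802% higher and 0.0357% lower), again none of the 44. The median difference of the 44 was 0.016, against -0.014 for all genes. Of the 44, Cdt1 and Gins3 alone had groups that did not overlap, both upward, where 1.66% of all genes did so upward and 2.4% downward. For Cdt1 the empty controls read 103, 113 and 105 FPKM and overexpression 113, 115 and 114 FPKM, and for Gins3 11.8, 12.3 and 11.9 FPKM and 12.3, 12.9 and 13.2 FPKM. Their differences were 0.091 (95% interval -0.10 to 0.28) and 0.088 (95% interval -0.094 to 0.27). By number, overexpression exceeded its empty control in 38 of 44 genes for library 1, 15 for library 2 and 34 for library 3, against 44.4%, 38.3% and 49.7% of all genes.

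A lack of calls here does not show equal levels. The intervals ran from Gins3, the narrowest, to -1.16 to 1.47 for Ccne2, and for Ccne1 the interval was -0.86 to 0.94. Mcm6 differed by -0.012 (95% interval -0.50 to 0.47) and Pold2 by 0.011 (-0.24 to 0.26). With the replicate block the median half-width of the 44 intervals was 0.118 in place of 0.451, and all 44 still held 0. Over 14 settings 42 of the 44 differences changed sign at least once. These settings include fits that dropped 1 library of a same-numbered pair. The median was -0.097 without empty control 2 and 0.18 without overexpression 2, against 0.016 in the main fit. How many sign changes came from such fits was not counted.

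The spread in the overexpression experiment followed the library number. Compared with numbers 1 and 3, the libraries numbered 2, 1 empty control and 1 overexpression, were lower in 30 of the 44 genes and higher in none. Among all genes tested 27.6% were lower, 10.6% higher and 38.1% called in either direction. The median of the 44 was -0.46, against -0.086 for all genes. Same-numbered libraries correlated in this experiment, at 0.848 for number 2, yet the fit took all libraries as independent. Number 2 is thus 1 pair of libraries, and the p-values of this contrast do not measure how far it would repeat. Scaling by the median of ratios moved the median of all genes by 0.096 and the split over all genes from 1186 higher and 3091 lower to 2008 and 1741, and left 27 of the 44 lower. With limma-voom on recovered reads 30 of the 44 were lower and 2 higher, where 1977 of all genes were lower and 2100 higher. Both libraries numbered 2 stood below the other 4 in 36 of the 44 genes, against 41.4% of all genes (19.5% the other way round). These 2 libraries also gave 12.9% and 14.4% of their summed FPKM to their 10 most abundant genes, against 8.83% to 10.3% in the other 4, and the part of this in the result was not tested. Scrambled control library 1 gave 12.5%, against 10.3% and 10.9% in the other scrambled controls and 9.27% to 10.4% in knockdown.

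Both cyclin E genes, Rrm2 and Tyms had the 4 largest falls. Ccne2 levels were 11.4, 2.79 and 6.55 FPKM for empty controls 1, 2 and 3 and 11.4, 3.13 and 8.59 FPKM for overexpression, so both libraries numbered 2 were the lowest (fall of 1.38, SE 0.21, adjusted p = 0.00973). Ccne1 showed 29.6, 13.3 and 23.8 FPKM and 29.96, 13.5 and 25.3 FPKM (difference -0.96, SE 0.11, adjusted p = 0.00625). Rrm2 gave 66.2, 33.1 and 54.2 FPKM and 69.7, 32.9 and 63.5 FPKM (-0.92, SE 0.10, adjusted p = 0.00595). In all 3 genes the library numbered 2 was the lowest of its group, with either construct. Tyms followed at 10.99, 5.67 and 10.8 FPKM and 12.2, 5.36 and 10.5 FPKM (-0.90, SE 0.077, adjusted p = 0.00377). Cdc6 was at 11.7, 5.82 and 9.05 FPKM and 11.8, 6.05 and 10.02 FPKM (-0.74, SE 0.11, adjusted p = 0.00989).

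All 6 ring genes, all 4 nucleotide supply genes and all 4 G1/S regulators were lower in number 2. Mcm6 fell from 106 and 105 FPKM in empty controls 1 and 3 to 78.04 FPKM in control 2 (fitted difference -0.50, SE 0.061, adjusted p = 0.00647). Rpa2 levels were 48.04, 31.1 and 45.5 FPKM and 50.9, 27.7 and 49.1 FPKM, a fall of 0.70 (SE 0.079, adjusted p = 0.00601). E2f2, which did not pass in knockdown, had 17.5, 12.8 and 17.4 FPKM and 18.3, 12.7 and 18.9 FPKM, a fall of 0.47 (SE 0.059, adjusted p = 0.0068). Pold2 did not pass, at 41.6, 49.9 and 49.7 FPKM and 44.5, 49.2 and 48.4 FPKM (0.11, 95% interval -0.11 to 0.33). For these falls the test rests on both libraries numbered 2: without either of them it called 0 of the 44 and 0 of all genes, at medians of -0.51 and -0.40. In the knockdown experiment the same contrast called 0 of 44 and 0.0% of all genes, with 2 of the 44 and 2113 of all genes at an unadjusted p under 0.05 and a median of 0.09. Those 2 were Ccne1 (0.21) and Ccne2 (0.42), with number 2 the higher.

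The knockdown difference and the number 2 difference share no library, and set side by side they sorted the 44 genes into 4 sets. In 21 genes both passed. That is 72.4% of the knockdown list, near the 68.2% of the 44 that passed in number 2. It is 70.0% of the number 2 list, near the 65.9% of the 44 that passed in knockdown. The share of all genes that passed both was not counted. The shared genes hold the whole ring, Mcm10, Rrm1, Rrm2, Ccne1 and Uhrf1. A further 8 passed in knockdown only: Cdc45, Gins1, Rfc4, Rfc5, Rpa3, Pold1, Pold2 and Prim2. Another 9 passed in number 2 only: Orc1, Cdc6, Pcna, Pola2, Fen1, Tyms, E2f1, E2f2 and Ccne2. The last 6 passed in neither: Cdt1, Gins3, Gins4, Rfc2, Rfc3 and Dnmt1. With the replicate block in the knockdown fit the sets held 26, 10, 4 and 4 genes, as Orc1, Cdc6, Pola2, Tyms and Ccne2 joined the shared set and Rfc2 and Rfc3 the knockdown set. Without the block, of the genes with a promoter window, an E2F match was present in 7 of 18 of the shared set, 1 of 6, 3 of 8, and 4 of 4 in the last. These are counts over few genes, and whether the sets differ was not tested.

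**Figure D5:**
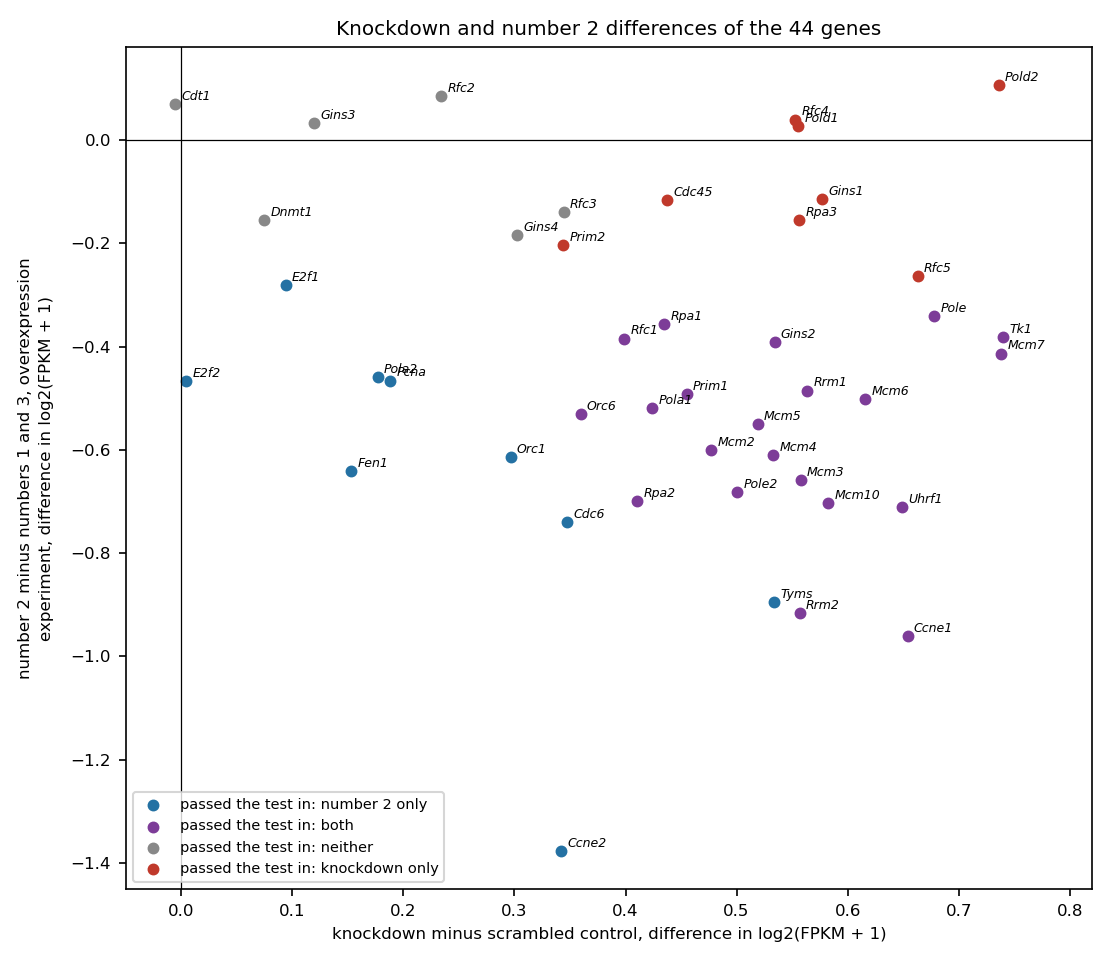
Each of the 44 genes by its knockdown minus scrambled control difference (x axis) and by its number 2 minus numbers 1 and 3 difference in the overexpression experiment (y axis), both in log2(FPKM + 1), coloured by which test it passed. Pold2 sits at the upper right (0.74 and 0.11), Ccne2 at the bottom (0.34 and -1.38) and Cdt1 near the origin (-0.0054 and 0.070).

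The 2 control groups were then compared, because the knockdown result is read against scrambled controls alone. In the 12-library fit 7 of the 44 genes were lower in the scrambled than in the empty controls and none higher: Cdt1, Cdc45, Gins1, Rfc2, Pold1, Pold2 and Tk1. Among 11224 genes 3.47% were lower and 0.633% higher, 4.11% in all, a split of 71 higher to 390 lower that median-of-ratios scaling made 150 to 360. The median of the 44 was -0.35, against -0.041 for all genes. Gins1 at 19.1, 17.5 and 19.9 FPKM and Pold2 at 41.6, 49.9 and 49.7 FPKM in the empty controls lay above every scrambled control (scrambled minus empty -0.68 and -0.63, SE 0.10 and 0.091, adjusted p = 0.00858 for both). The groups differ in construct and in experiment, which cannot be told apart. All 3 scrambled controls stood below all 9 other libraries in 11 of the 44 genes, against 8.34% of all genes. The fit without the libraries numbered 2 called 16 of the 44 lower, 3 of them among the 7 named above, and 461 of all genes, at a median of -0.54.

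Against the empty controls the knockdown libraries did not stand high. No gene of the 44 was higher and 1, Cdt1, was lower (3.28% of all genes called, 1.08% higher and 2.2% lower), at a median of 0.085. Cdt1 differed by -0.35 (SE 0.069, adjusted p = 0.0238), with all 3 knockdown libraries below the 3 empty controls; the call was lost without any 1 knockdown library or without empty control 2 or 3. Mcm7 differed by 0.16 (95% interval -0.19 to 0.50) and Pold2 by 0.11 (-0.095 to 0.31). The overexpression libraries, set against the scrambled controls, were higher in 6 of the 44 (Cdt1, Cdc45, Gins1, Pold1, Pold2 and Pole) and lower in none, where 3.07% of all genes were higher, 0.829% lower and 3.9% called. Their median was 0.40, and without the libraries numbered 2 the test called 28 of the 44 higher, and 567 of all genes higher and 106 lower. This comparison and the knockdown comparison share the scrambled controls, so they are not separate evidence.

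The difference between the 2 effects was tested directly, as the overexpression effect minus the knockdown effect. It was below 0 and passed for Gins1 (-0.61, SE 0.14, adjusted p = 0.0341) and Pold2 (-0.72, SE 0.13, adjusted p = 0.0169), 2 of the 44, where 1.9% of all genes passed above 0, 2.94% below and 4.84% in all. That split of 213 to 330 became 339 to 252 under median-of-ratios scaling, which kept these directions. Both had narrow spreads in the empty and overexpression groups, Gins1 at 18.2, 17.7 and 19.4 FPKM and Pold2 at 44.5, 49.2 and 48.4 FPKM in overexpression. With the replicate block 33 of the 44 passed, all below 0, against 28.6% of all genes (12.9% above 0, 41.5% in all), and without the libraries numbered 2 none did. Of the 12 fits that left out a single library the call was lost in 9 for Gins1 and in 3 for Pold2.

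Other genes of the same pathway were read from a second list of 44 replication genes and a list of 27 G1/S control genes, 26 of them tested. In knockdown 27 of the second list rose and none fell, at a median of 0.44, where 17.4% of all genes rose and 8.86% fell. Cdc7, the kinase that fires origins, rose by 0.54 (adjusted p = 0.00301), Dut, which removes dUTP, by 0.78 (adjusted p = 0.00393), and Pclaf, a PCNA-binding factor listed under an older clone name, by 0.73 (adjusted p = 0.00366). The 3 of this list with the smallest p among negative differences, Dck (-0.29), Mcm9 (-0.10) and Pold4 (-0.11), did not pass. Of the G1/S control genes 12 rose and 1 fell, Fbxw7 (-0.39), a ubiquitin ligase gene that targets cyclin E and is named here after its value was seen. In number 2 of the overexpression experiment 27 of the second list were lower and 1 higher, and 16 of the control genes lower and 1 higher, against 27.6% and 10.6% of all genes. The higher ones, also named after their values were seen, were Pold4 (0.65) and Rb1 (0.35).

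Exon bases shared with another annotated gene limit some rows. In GENCODE M21 14 of the 44 genes share such bases and 8 share over 10%, among them Ccne2 at 17.4%, Rfc2 at 15.1%, Rfc4 at 12.7%, Mcm7 at 12.6%, Orc1 at 10.8% and Rfc5 at 10.7%. For 42 of the 44 the length recovered from the FPKM values was below the annotated exon bases, so the counted models may share fewer bases than these. Which gene models lie behind the deposited values is not stated in the labels.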

How the data were processed

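RNA-seq of 12 BV2 libraries was used. The authors deposited FPKM values per gene in 2 tables. CASAVA 1.8.2, bcl2fastq, STAR 2.5.2a, featureCounts, DESeq2 1.14 and mm10 are named in the submitters' processing notes, without roles. Libraries were unstranded, 100-bp and single-end per the labels' protocols. FPKM steps gave whole reads (within 0.01) for 17838 of 17838 genes above 0. The 4 rows with repeated symbols were left out.

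Differences were tested on log2(FPKM + 1) by limma 3.58.1 (R 4.3.3) where a gene averaged at least 1 FPKM, with Benjamini-Hochberg adjustment, threshold 0.05. A check on simulated data drew each library independently, without pairs or library-wide shifts, so it does not show the error rate for these libraries. Knockdown and overexpression were each fitted in their 6 libraries, cross-group contrasts in 12, and number 2 with treatment as covariate. Alternatives were a pseudocount of 0.1, no filter, median-of-ratios scaling, limma-voom on recovered reads, the replicate block, left-out libraries and a 12-library fit.

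Replicate numbers come from the titles. Same-numbered deviations correlated at 0.397, 0.535 and 0.343 (knockdown) and 0.8, 0.848 and 0.514 (overexpression), so the replicate block treated them as pairs within experiments. The main fits had no block and took all libraries as independent. Their p-values and intervals, also those of the effects figure, are therefore unpaired. Across control groups they gave -0.269, -0.406 and 0.133 and do not pair. Scrambled control 2 and empty control 1, of separate experiments, correlated at 0.461, within the range of the knockdown values, so the knockdown pairing is less certain.

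Library values were printed for the 2 smallest and the largest knockdown p of each role, the G1/S regulators, Pcna, Spi1, and genes called in overexpression or in the difference of effects. The 44 genes, the lists and the number 2 contrast were chosen with earlier results of these data known.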

Additional observations from a re-analysis of the deposited data

Results flagged for a closer look

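Gins1 and Pold2 are listed because the effects of overexpression and of knockdown differed in a direct test, the interaction term of limma over 12 libraries without a replicate block. Without the block these were 4.55% of the 44 genes, near the 4.84% of all genes that passed. With the block 33 of the 44 genes passed below 0, against 28.6% of all genes. Of the 12 fits leaving out 1 library the call was lost in 9 for Gins1 and in 3 for Pold2. For Gins1 the overexpression effect minus the knockdown effect was -0.61 (95% interval -0.91 to -0.30), from a knockdown difference of 0.58 and an overexpression difference of -0.029. For Pold2 it was -0.72 (95% interval -1.01 to -0.44), from 0.74 and 0.011. Both genes were also lower in the scrambled than in the empty controls, by 0.68 and 0.63, and neither passed between knockdown and the empty controls (-0.10 and 0.11).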

How the results depend on the processing

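No difference of the 44 genes that passed its test reversed under any setting run. In knockdown against scrambled control the 29 calls became 36 with the replicate block, 24 with no filter, 14 in the 12-library fit, 2 without number 2, and 22 to 30 leaving out 1 library; over all genes 2945 became 5081 with the block, 2659 with no filter, 1605 in the 12-library fit, 449 and 1458 to 2206. Overexpression against empty control gave 0 in all 14 settings. Scrambled against empty control had 7, and 11 with the block, 16 without number 2 and 2 to 9 leaving out 1 library (all genes 461, 716, 461 and 49 to 585). Knockdown against empty control had 1, and 0 without number 2 and 0 to 1 leaving out 1 library (all genes 368, 82 and 106 to 480). Overexpression against scrambled control had 6, and 12 with the block, 28 without number 2 and 1 to 17 leaving out 1 library (all genes 438, 698, 673 and 55 to 522). The difference of effects had 2, and 33 with the block, 0 without number 2 and 0 to 3 leaving out 1 library (all genes 543, 4658, 80 and 109 to 575). Number 2 had 0 in knockdown, and 1 by limma-voom, and 30 in overexpression, 0 to 31 leaving out 1 library (all genes 4277, 0 to 4333). Fewer libraries enter the fits without number 2 or without 1 library; for the other settings the cause was not tested. Where 1 library was left alone in an arm, it was assumed to vary like the others. Numbers do not pair across experiments, so the block in the cross-group contrasts is a setting only. With 3 libraries a group, intervals of the 44 in overexpression against empty control had a median half-width of 0.451, or 0.118 with the block.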

Other observations

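A list of 33 mitosis genes, chosen for comparison with earlier results known, was read beside the replication genes. In knockdown 31 of 33 rose, at a median of 0.94, against 17.4% of all genes, with Pttg1 and Cdc25b the other two. Mki67, the proliferation marker, had means of 16.4 ± 3.75 FPKM in the scrambled controls and 31.7 ± 1.05 FPKM in knockdown (SD, n = 3). Ccnb1, the mitotic cyclin gene, had 26.9 ± 5.46 and 57.4 ± 2.49 FPKM (SD, n = 3). In the scrambled controls 26 of the 33 were lower than in the empty controls, at a median of -0.80, and 22 passed below 0 in the difference of effects, against 3.47% and 2.94% of all genes. In number 2 of the overexpression experiment 2 of the 33 were lower, Kif20a and Mad2l1, at a median of -0.22, which is 6.06% of the list against 27.6% of all genes, and 30 of the 44 replication genes were. By library, the mitosis median relative to the mean of the empty controls was -1.06, -0.87 and -0.51 in the scrambled controls, against -0.56, -0.27 and -0.21 for the replication genes. In empty control 2 and overexpression 2 it was -0.11 and -0.31, against -0.26 and -0.29. Whether the 2 lists differ was not tested.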
